A study of Mus musculus with 4 samples.

Results

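Endothelial cells of the mouse mammary gland were taken as the cell barcodes with at least 1000 unique molecular identifiers (UMIs, each counting 1 captured RNA molecule) and at least 4 UMIs summed over the 5 markers Pecam1, Cdh5, Egfl7, Emcn and Cldn5. Their UMIs in Krt5, Krt8, Krt18 and Epcam together, 4 epithelial genes, had to be fewer than that sum. The rule found 267 cells among 17832 barcodes with at least 1000 UMIs and 18223 deposited barcodes. The cells were chosen from the counts themselves, so the marker levels and every contrast of these cells with the others are descriptions without a test.

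The preparations were labelled as mammary epithelial cells and came from the fourth glands of FVB mice aged 9 weeks, 1 mouse for each of 4 libraries. All mice, controls included, carried Tfap2c fl/fl and Krt5-CreERT2. Krt5-CreERT2 is a Cre recombinase that tamoxifen compounds activate and that is driven by the promoter of Krt5, a keratin gene of basal epithelium. Krt5 stood at 16.1 CPM (UMIs of a gene scaled to a common total) in the endothelial cells and 177 CPM in all others. It is among the 4 genes whose UMIs the rule limited, so its low level in the endothelial cells is not independent of the rule. From 4 weeks of age, 2 mice were given corn oil, the vehicle, and 2 were given 4OHT (4-hydroxytamoxifen), both daily. Tfap2c, which encodes the transcription factor AP-2γ, was not lower in both 4OHT-labelled libraries: all non-endothelial cells had 248 and 163 CPM with corn oil and 213 and 223 CPM with 4OHT. These are 3′ tag counts, which can still count a transcript that lacks an internal exon.

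Blood endothelium lines arteries, capillaries and veins, and lymphatic endothelium lines the vessels that drain the tissue. In the mammary gland the capillaries lie in the fat pad around the epithelial ducts and grow with them. Vascular endothelial growth factor (VEGF) from neighbouring cells acts on receptors of the endothelium, the angiopoietins act on the receptor encoded by Tek, and Notch signals between endothelial cells take part in the choice of sprouting tip cells and of arterial fate.

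Of the 267 cells, corn oil replicate 1 held 8, corn oil replicate 2 held 78, 4OHT replicate 1 held 42 and 4OHT replicate 2 held 139. The share of barcodes with at least 1000 UMIs was 0.228% in corn oil replicate 1 (8 of 3509, exact 95% Clopper-Pearson interval 0.0985% to 0.449%). It was 1.84% in corn oil replicate 2 (1.46% to 2.29%), 0.899% in 4OHT replicate 1 (0.649% to 1.21%) and 2.56% in 4OHT replicate 2 (2.16% to 3.02%). Such intervals cover counting error only. The 2 treatments overlapped, and in each of them the library numbered 2 held the larger share. The mean share was 1.73% ± 1.18 (SD, n = 2) with 4OHT and 1.04% ± 1.14 (SD, n = 2) with corn oil, a difference of 0.697 percentage points that was smaller than the spread within either group (exact two-sided permutation p = 0.667, the smallest possible being 0.33). The difference was 0.671 points between the libraries numbered 1 and 0.722 points between those numbered 2. Without corn oil replicate 1 it was -0.111 points and without 4OHT replicate 2 it was -0.136 points. These are shares of preparations labelled as epithelial, not of the gland, and p-values measure only the spread between these mice and their preparations.

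**Figure D1:**
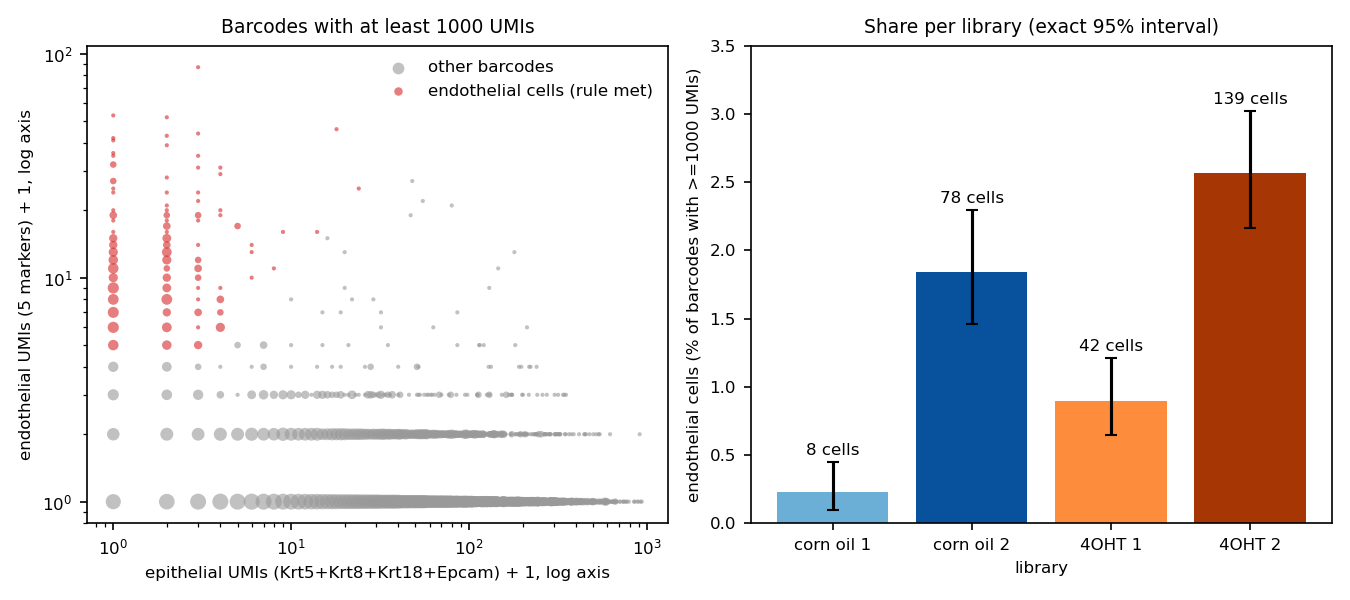
Left, endothelial UMIs against epithelial UMIs (each plus 1, log axes) of all 17832 barcodes with at least 1000 UMIs, with point size growing with the number of barcodes and the 267 endothelial cells in red. Right, the endothelial share of each library in percent with its exact 95% interval and cell number, from 0.228% in corn oil replicate 1 to 2.56% in 4OHT replicate 2.

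The endothelial cells were shallower than the rest, with a median of 2189 UMIs and 857 genes per cell against 3925 UMIs and 1151 genes in the other barcodes. Their summed UMIs were 30177 and 240554 in the corn oil-labelled libraries and 137823 and 335664 in the 4OHT-labelled ones, so corn oil replicate 1 carried the fewest. Whole libraries held 17351950 to 22017878 UMIs. Across the libraries 155 barcode sequences occurred more than once, and 0 of them were endothelial cells in more than 1 library. Doublet scores placed 40 endothelial cells among the highest of their libraries (0, 13, 10 and 17 in the order corn oil 1 and 2, 4OHT 1 and 2), and these cells were kept. In the same order 99, 143, 174 and 235 of 3509, 4233, 4670 and 5420 barcodes with at least 1000 UMIs were so marked. The marked share was thus larger among the endothelial cells than among all such barcodes in every library but corn oil replicate 1. Cells with fibroblast markers numbered 0, 69, 24 and 7 in the same order, and cells with leukocyte markers 0, 25, 28 and 0.

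At the lower edge of the rule, 23 endothelial cells had a marker sum of exactly 4, while 21 barcodes with a sum of 3 met the other conditions and were left out. The 28 other general endothelial genes together stood at 5194 CPM in the cells with a sum of 4, 4916 CPM in those with a higher sum and 4802 CPM in the barcodes with a sum of 3. A further 34 barcodes reached a sum of 4 or more but held as many or more epithelial UMIs. In these the same genes stood at 1287 CPM and the median depth was 6053 UMIs, against 82.2 CPM over all other barcodes. No epithelial UMI was seen in 134 of the 267 cells.

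The markers of the rule were found in every library. Egfl7, a secreted vascular protein, stood at 1160 and 1538 CPM in the corn oil-labelled and at 1110 and 1302 CPM in the 4OHT-labelled endothelial cells. Emcn, a sialomucin of veins and capillaries, stood at 762 and 636 CPM, then at 588 and 772 CPM. Cldn5, a tight junction claudin, was lowest in corn oil replicate 1 at 99.4 CPM and lay between 740 and 1141 CPM in the other libraries. Cdh5 (VE-cadherin) averaged 505 CPM over the pooled cells and 0.81 CPM elsewhere, and Pecam1 619 CPM and 26.4 CPM. Krt8 and Krt18, keratins of luminal cells, stood at 87.3 and 208 CPM in the endothelial cells against 2454 and 5625 CPM elsewhere.

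The label was checked against lists of marker genes. Of 28 general endothelial genes that the rule did not use, 25 were at least 4-fold higher in the endothelial cells, where 3.39% of all 15031 genes compared were (510 genes, ratio of pooled CPM with 5 CPM added to both). The luminal list held 3 genes and the basal list 1 gene that the rule had required to be low. Of the 9 luminal and 7 basal genes that the rule did not name, 6 and 6 were at least 4-fold lower, where 1.58% of all genes were. Ptprc, Laptm5, Coro1a, Cd52 and Rac2, all leukocyte genes, had 0 UMIs in the 267 cells, and 1 of 10 leukocyte genes was detected. The pericyte genes Kcnj8 and Abcc9 and the fibroblast gene Pdgfra were also at 0. Of 9 pericyte genes, however, 6 were detected, and of 9 fibroblast genes 6, and 0 genes of either list were at least 4-fold lower. The pericyte list summed to 45.7 CPM against 78.1 CPM elsewhere, and the fibroblast list to 73.9 CPM against 130 CPM. No endothelial cell had 4 or more UMIs over the fibroblast or the leukocyte markers.

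The start regions of 3 genes of this endothelial set are shown, because they hold a motif of the ETS family, transcription factors of which several (Erg, Fli1, Ets1) are known regulators of endothelial genes. Each is the 250 bases before a RefSeq transcript start on GRCm38.p6, 5′ to 3′ on the plus strand, with CAGGAAG or its reverse complement CTTCCTG in capitals. The regions are chr3:137340828-137341077 (Emcn), chr2:26580833-26581082 (Egfl7, 1 of its 3 listed starts) and chr6:134981751-134982000 (Apold1).
Emcn: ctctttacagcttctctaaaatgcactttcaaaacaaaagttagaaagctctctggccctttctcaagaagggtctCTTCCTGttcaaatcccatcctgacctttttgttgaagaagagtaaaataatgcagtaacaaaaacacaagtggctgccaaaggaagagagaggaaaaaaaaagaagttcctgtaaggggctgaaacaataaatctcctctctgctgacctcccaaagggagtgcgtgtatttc
Egfl7: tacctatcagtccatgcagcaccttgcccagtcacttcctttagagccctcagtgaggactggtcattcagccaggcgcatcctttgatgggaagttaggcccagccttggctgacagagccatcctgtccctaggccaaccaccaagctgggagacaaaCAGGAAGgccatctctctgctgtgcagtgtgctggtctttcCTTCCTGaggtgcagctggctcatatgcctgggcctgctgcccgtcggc
Apold1: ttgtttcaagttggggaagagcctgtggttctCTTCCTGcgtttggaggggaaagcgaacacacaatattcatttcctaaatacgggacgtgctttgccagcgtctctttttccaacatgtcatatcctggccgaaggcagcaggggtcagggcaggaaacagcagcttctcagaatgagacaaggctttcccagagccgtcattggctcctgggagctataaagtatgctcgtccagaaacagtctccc

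Such windows were listed for 14 of the 25 genes made up of the 5 rule markers and the 20 genes named next, 18 windows in all. On either strand CAGGAAG lay in 27.8% of the 18 windows (5 windows, of Apold1, Ctla2a, Egfl7 and Emcn) and in 10.8% of all 32851 windows. In all, 7 overlapping motifs were searched, and the regions shown were picked after the counts were seen. CCGGAAG lay in 5.56% of the 18 windows and 6.91% of all, ACAGGAAG in 16.7% and 2.90%, AGGAAG in 7 of the 18 windows and 29.5%, and GGAAG in 77.8% and 64.1%. The forkhead motif TGTTTAC lay in 0 of the 18 windows and in 3.17% of all, and TGTTTNC in 33.3% and 17.8%. No test was made, and a match is not a binding site.

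At a level of at least 100 CPM, 199 genes were at least 4-fold higher in the endothelial cells (1.32% of the genes compared), and 131 of them (0.872%) were so in each of the 3 libraries with at least 20 endothelial cells. The ratio was highest for Fabp4, which encodes a fatty acid binding protein of capillaries and fat cells and lies at chr3:10204088-10208576. Fabp4 stood at 2518 and 3509 CPM in the corn oil-labelled and at 3642 and 6733 CPM in the 4OHT-labelled endothelial cells, against 21.0 CPM in the other cells, a ratio of 191. It was detected in 217 of the 267 cells. After each cell was thinned to 1000 UMIs it was seen in 72.3% of endothelial and 1.18% of other cells (81.3% and 2.11% unthinned).

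Ctla2a, encoding a protease inhibitor-like protein, followed with 1173 CPM against 7 CPM. It was uneven: 596 and 461 CPM with corn oil, and 341 and 2076 CPM with 4OHT, and 24.1% of its UMIs came from 1 cell. It has close copies in the genome, so its counts are uncertain. The gene 8430408G22Rik stood at 2339 CPM against 20.8 CPM, and Apold1, an early response gene of endothelium, at 650 CPM against 2.26 CPM. Plvap, which forms the diaphragms of fenestrated capillaries, stood at 605 CPM against 2.96 CPM.

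The remaining named genes included adhesion and membrane proteins: Selp (P-selectin) at 391 CPM, Esam at 352 CPM, Cd93 at 324 CPM and Icam2 at 274 CPM, each at or below 1.63 CPM elsewhere. Myct1 stood at 497 and 295 CPM with corn oil and 319 and 313 CPM with 4OHT. Procr, the endothelial protein C receptor, stood at 797 CPM against 12.6 CPM, and Cd36, a fatty acid transporter, at 255 CPM against 1.09 CPM. Srgn, Ramp2, Tmem252, Gngt2, Gng11, Fxyd5 and Gimap6 completed the list with ratios between 42.0 and 61.6. Among them Tmem252 came from 51 cells, with 3 and 44 UMIs with corn oil and 3 and 172 with 4OHT. Nts, encoding neurotensin, had a ratio of 61.4 but came from 19 cells, with 30.5% of its UMIs from 1 cell.

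**Figure D2:**
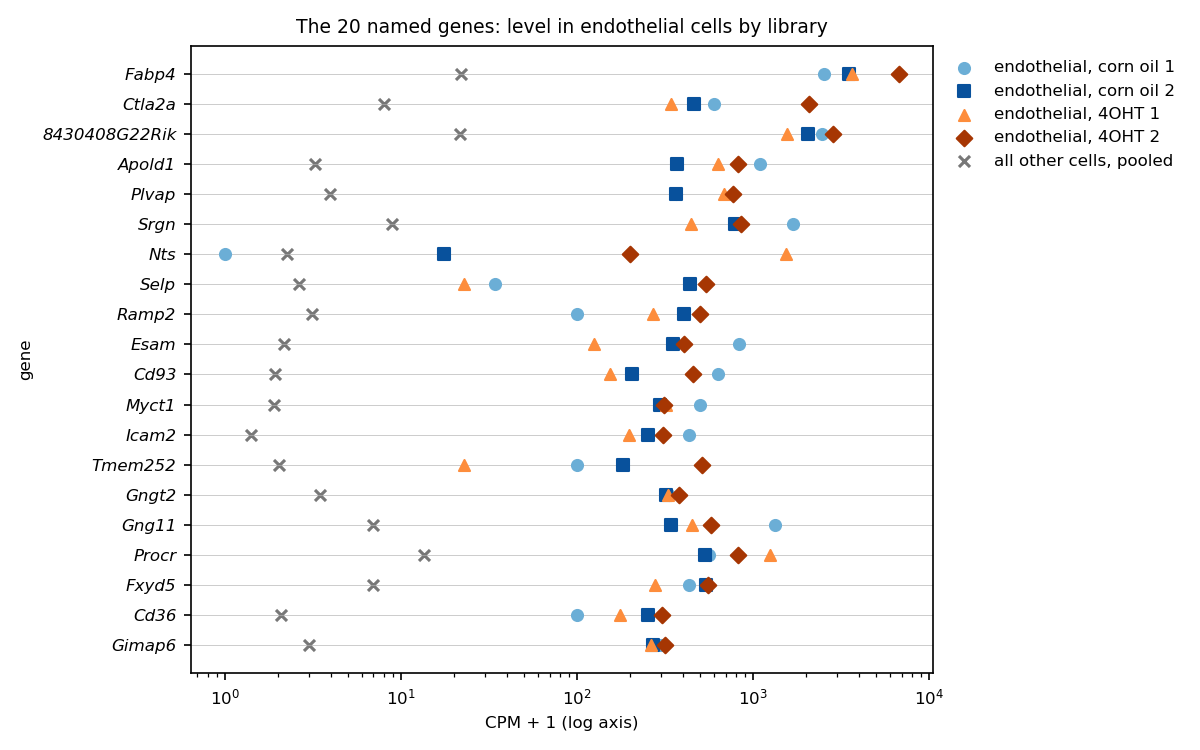
Level of the 20 named genes in CPM plus 1 (log axis) in the endothelial cells of each library (coloured points) and in all other cells pooled (grey crosses). Fabp4 lies between 2518 and 6733 CPM in the 4 libraries, while Nts ranges from 0 to 1531 CPM.

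In the lists that follow, counts of genes at least 4-fold higher are to be read beside the 3.39% of all genes that were so. Of 11 genes of fatty acid handling compared, 8 were at least 4-fold higher. Gpihbp1, which carries lipoprotein lipase to the capillary surface, stood at 124 CPM in endothelial cells and 0.1 CPM in both epithelial classes. The lipase gene Lpl itself was at 12.1 CPM in endothelial cells and at 252 CPM in fibroblast-marker cells. The transcription factor genes Meox2 and Tcf15, which mark fatty acid-transporting capillaries, stood at 45.7 and 17.5 CPM. Of 13 genes of caveolae and transport 8 were at least 4-fold higher, among them Cav1 (599 CPM against 89.4 in basal and 26.9 in luminal cells) and the water channel gene Aqp1 (317 CPM).

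Epithelial cells were split for this comparison into basal and luminal classes by whether Krt5, Krt14, Krt17 and Acta2 or Krt8, Krt18, Krt19 and Epcam had more UMIs. Of 17 VEGF and angiopoietin genes, 10 were at least 4-fold higher in endothelial cells and 1, Vegfa, at least 4-fold lower (3.39% and 1.58% of all genes). The ligand gene Vegfa stood at 450 CPM in basal, 96.7 CPM in luminal and 56.4 CPM in endothelial cells. Its receptor genes were highest in the endothelial cells: Kdr stood at 77.9 CPM in endothelial cells, 0.4 CPM in basal and 0.3 CPM in luminal cells, and Flt1 at 269, 0.5 and 1.1 CPM. Flt4, the receptor of Vegfc, was at 37.6 CPM in endothelial cells and at 0 or below 0.1 CPM in the other classes. The ligand genes Pgf (488 CPM) and Angpt2 (138 CPM) were highest in the endothelial cells, Pgf with 149 CPM in basal cells and Angpt2 with 0.2 CPM. Angpt1, the other Tek ligand, was at 1.3 CPM in endothelial and 6.0 CPM in luminal cells. Tek and Tie1 stood at 43.0 and 67.2 CPM and were at or below 4.2 CPM elsewhere.

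Of 12 Notch genes compared, 2 were at least 4-fold higher, the ligand gene Dll4 and the receptor gene Notch4 (3.39% of all genes). Dll4 stood at 103 CPM in endothelial cells and at 0 to 0.1 CPM in the other classes, and Notch4 at 17.5 CPM against at most 0.4 CPM. Jag1 was close in endothelial and basal cells (47.0 and 51.4 CPM), and the target gene Hey1 was higher in luminal cells (44.1 CPM) than in endothelial cells (26.9 CPM). Of 15 genes of BMP and TGF-beta signalling 6 were at least 4-fold higher (3.39%). They were the receptor genes Acvrl1 (133 CPM) and Eng (222 CPM), the ligand genes Bmp4 and Bmp6, and the target genes Id1 (114 CPM) and Id3 (343 CPM), of which Id3 was higher still in fibroblast-marker cells at 539 CPM. All values here are pooled UMIs of 3′ tags, which compare 1 gene between classes, and depth differed between classes.

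**Figure D3:**
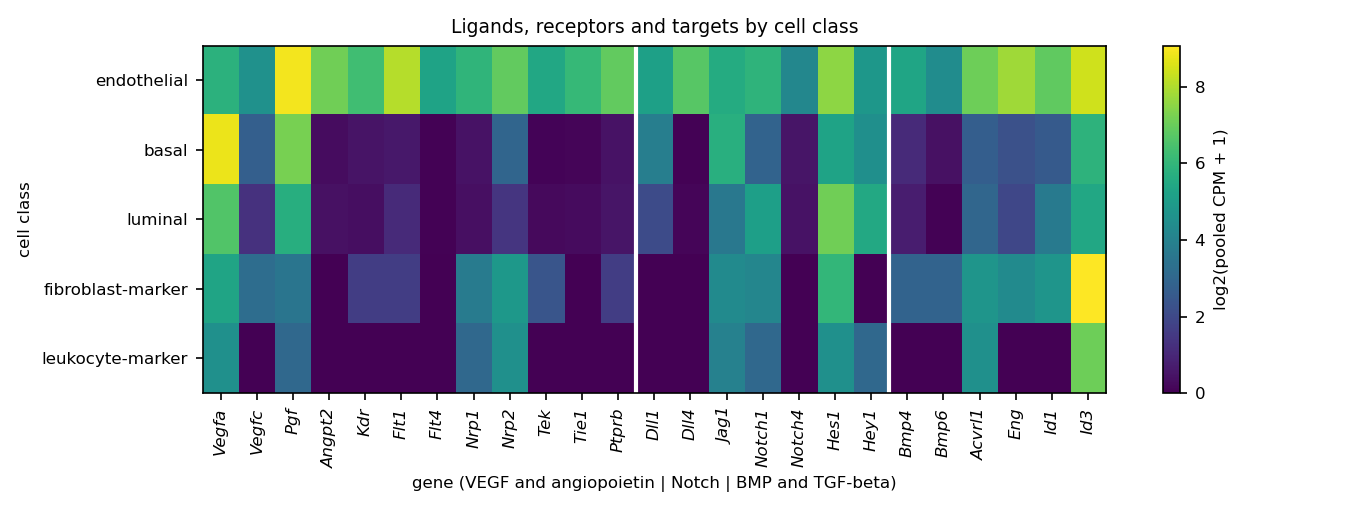
Pooled level, as log2 of CPM plus 1, of ligand, receptor and target genes in 5 cell classes, with white lines between the VEGF and angiopoietin, Notch, and BMP and TGF-beta genes. Vegfa is brightest in basal cells (450 CPM), while Kdr, Flt1, Tek and Dll4 are bright in the endothelial row alone.

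Among genes of coagulation and vascular tone, 11 of 14 were at least 4-fold higher (3.39% of all genes). Thbd (thrombomodulin) and Tfpi, both anticoagulant, stood at 191 and 193 CPM and Vwf, the platelet adhesion factor, at 128 CPM. Edn1, the gene of the vasoconstrictor endothelin, stood at 513 CPM in endothelial, 106 CPM in luminal and 3.2 CPM in basal cells, and Nos3, which makes nitric oxide, at 55.1 CPM. Klf2, a flow-induced factor, was at 564 CPM in endothelial and at 574 CPM in leukocyte-marker cells. Of 14 genes of leukocyte adhesion and traffic 11 were at least 4-fold higher, including Ackr1 (313 CPM), Vcam1 (235 CPM) and Cxcl12 (146 CPM).

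Of 8 antigen presentation genes compared 5 were at least 4-fold higher (3.39% of all genes): H2-D1 and B2m of class I and H2-Aa, H2-Ab1 and Cd74 of class II. The class I pathway genes H2-K1, Tap1 and Psmb8 had ratios of 3.41, 2.22 and 2.04. H2-D1 stood at 5176 CPM in endothelial cells against 1198 CPM in basal and 1296 CPM in luminal cells, and B2m at 4476 CPM against 713 and 939 CPM. H2-Aa, H2-Ab1 and Cd74 stood at 48.4, 49.7 and 84.7 CPM in endothelial cells and at 1587, 1140 and 3942 CPM in leukocyte-marker cells. The basement membrane list was mixed, with 5 of 14 genes at least 4-fold higher (3.39%): Lama4, Nid1, Nid2, Sparcl1 and Col15a1. Col4a1 was close in endothelial and basal cells (177 and 157 CPM). The AP-2 genes were low, with 3 of 4 at least 4-fold lower (1.58% of all genes). Tfap2c had 8 UMIs in the 267 cells, 10.7 CPM, against 374 CPM in basal and 86.3 CPM in luminal cells.

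Clustering of the 267 cells by all variable genes gave 7 groups, numbered 0 to 6. The clusters were made from these genes, so their levels describe the groups and test nothing. A group was named where at least 3 of the markers listed for a type were detected and its leading genes did not go against the name.

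Group 0, lymphatic-like, was the largest with 66 cells (2, 7, 20 and 37 in corn oil 1 and 2 and 4OHT 1 and 2). Of 11 lymphatic markers compared, 9 were at least 4-fold higher than in the other endothelial cells, where 2.73% of 5974 genes were. Prox1, the transcription factor of lymphatic identity, stood at 201 CPM, Mmrn1 at 326 CPM, Stab1 at 340 CPM and Pdpn (podoplanin) at 403 CPM. In the same library order Prox1 was seen in 1, 2, 9 and 7 cells of the group, and Mmrn1 in 1, 4, 13 and 12. Plvap, named above for fenestrated capillaries, stood at 1675, 917, 1439 and 1466 CPM in this group, against 605 CPM over all endothelial cells. It was not particular to group 0. In group 3, described below, Plvap stood at 1387 CPM in corn oil replicate 2, 1007 CPM in 4OHT replicate 1 (1 cell) and 1525 CPM in 4OHT replicate 2. Lyve1, another lymphatic marker, had 0 UMIs in group 0, and Fabp4 stood at 5452 CPM there. Stxbp6 and Sema3d, an axon and vessel guidance gene, were each seen in 25 of the 66 cells. H2-Ab1, of MHC class II, was seen in 17. The leading gene by ratio was Ccl5, a chemokine gene whose UMIs all came from 1 cell.

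Group 2, tip and angiogenic-like, had 35 cells (4, 8, 6 and 17). Of 11 tip cell markers compared 8 were at least 4-fold higher (background 3.5%). Esm1, a proteoglycan of sprouting cells, stood at 539 CPM, Angpt2 at 451 CPM, Kcne3 at 495 CPM, Pgf at 1724 CPM and Dll4 at 380 CPM, while Vwf, Selp, Ackr1 and Prox1 were at 0. Rgcc, a capillary gene, stood at 1273 CPM, of which 29.9% came from 1 cell. Its leading genes also held Derl3 and Pdia4, which act in protein folding in the endoplasmic reticulum.

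Group 3 had 32 cells (0, 9, 1 and 22). Of 11 venous markers compared 4 were at least 4-fold higher (background 1.16%): Selp at 2575 CPM, Vwf at 733 CPM, Icam1 at 1717 CPM and Sele at 172 CPM. Ackr1, a chemokine-binding protein of venules, stood at 936 CPM. Aqp1 stood at 3105 CPM and was detected in all 32 cells. Its 10 leading genes held only Selp of the venous list, beside Cd14, Olr1, Sectm1a and Cx3cr1, genes known from myeloid cells, in 8, 10, 8 and 1 of its cells, and the group is left unnamed.

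Group 6, arterial-like, had 27 cells (0, 15, 0 and 12). Of 11 arterial markers compared 6 were at least 4-fold higher (background 3.2%), and the arterial list summed to 3117 CPM against 621 CPM in the other endothelial cells. Of 11 venous markers 2 were also at least 4-fold higher, and the venous list summed to 5423 CPM against 2362 CPM. Gja4, a gap junction gene of arteries, stood at 576 CPM, Bmx at 363 CPM, Fbln5 at 448 CPM and Stmn2 at 1238 CPM. Its leading genes were Cytl1 (14177 CPM), Gkn3 (3267 CPM) and Mgp (24832 CPM), and Fabp4, at 1110 CPM, was lower here than in the other 6 groups. Group 4, with 30 cells (1, 5, 6 and 18), shared Stmn2 (912 CPM) and Fbln5 (286 CPM) with it and had Hey1 at 233 CPM. It had 5 of 11 arterial markers at least 4-fold higher (background 1.36%) and Fabp4 at 8927 CPM, and it is unnamed because its extent was not stable: with 10 neighbours in place of 15, a group of 16 of its cells remained.

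Group 5, with 29 cells (0, 15, 0 and 14), is unnamed and was marked by interferon-stimulated genes: 11 of 12 were at least 4-fold higher than in the other endothelial cells (background 2.41%). Rsad2 stood at 5703 CPM, Isg15 at 2925 CPM and Ifit3 at 926 CPM. Group 1, with 48 cells (1, 19, 9 and 19), is unnamed too. Of these cells 21 had doublet scores among the highest of their library, the median depth was 3507 UMIs, and at most 2 of 11 markers of any vessel type were at least 4-fold higher (background 0.87%). Groups 5 and 6 were both empty in the libraries numbered 1: 0 of 42 cells in 4OHT replicate 1 allows a share of up to 7.14%, and 0 of 8 in corn oil replicate 1 a share of up to 37.5%. Shares of the groups were not tested between treatments, because corn oil replicate 1 had under 20 endothelial cells.

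**Figure D4:**
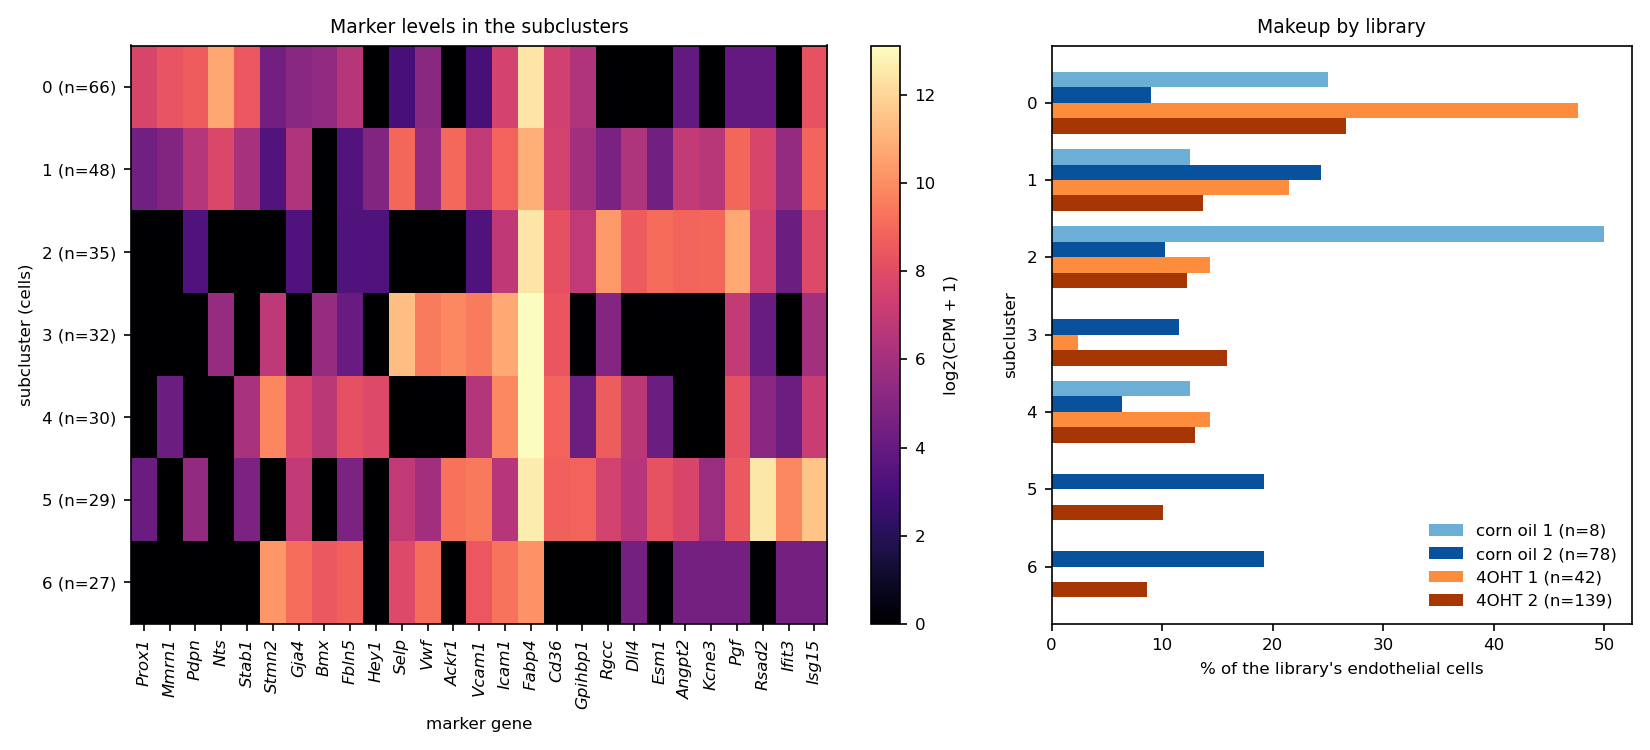
Left, level of marker genes (log2 of CPM plus 1) in the 7 groups of endothelial cells, numbered by size. Right, the percentage of each library's endothelial cells in each group, where groups 5 and 6 have bars for corn oil replicate 2 and 4OHT replicate 2 alone and group 0 reaches 47.6% in 4OHT replicate 1.

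The effect of 4OHT on the endothelial cells was tested on their counts summed per library, 2 libraries against 2, with edgeR's quasi-likelihood test. Of 2535 genes, 0 passed an adjusted p of 0.05 (background 0%). At an unadjusted p under 0.05 there were 45 genes (1.78%), 28 higher (1.1%) and 17 lower (0.671%), and DESeq2's Wald test also called 0, with 24 at an unadjusted p under 0.05. In simulated counts of this depth the same test recovered 0 of 200 genes changed by 1 on the log2 scale and 12 of 200 changed by 2. The simulated spread between libraries was a fixed value, the same for every gene, and was not estimated from these data. Changed genes that the filter on low counts removed were counted as not recovered. Under these settings most changes of that size were not detectable. Leaving out a library leaves 1 library in its group, which is then assumed to vary like the 2 of the other. So fitted, 26 genes passed without corn oil replicate 1, which had 8 endothelial cells, 9 higher and 17 lower, and 0 without corn oil replicate 2. Without 4OHT replicate 1 there were 5 and without 4OHT replicate 2 there were 11, while 8 passed when no filter on low counts was used.

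The gene with the smallest p was Ptn, which encodes the growth factor pleiotrophin and lies at chr6:36714929-36810220. Its level in endothelial cells was 33.1 and 54.0 CPM in the corn oil-labelled libraries and 305 and 393 CPM in the 4OHT-labelled ones. Of the 132 Ptn UMIs of 4OHT replicate 2, 51 came from 1 cell of group 1, without which its level was 247 CPM. The groups did not overlap, as was so for 14% of all genes in this direction, and the log2 fold change was 2.87 (SE 0.53) with an adjusted p of 0.998 by edgeR. Ptn is also an epithelial gene, with 565 CPM over all other cells. In those cells it stood at 426 and 451 CPM with corn oil and 466 and 922 CPM with 4OHT, and its part in the endothelial values was not tested. Of the 174 Ptn UMIs in 4OHT-labelled endothelial cells, 107 lay in lymphatic-like cells, which were 57 of 181 endothelial cells with 4OHT and 9 of 86 with corn oil.

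Nts followed, with 0 and 16.6 CPM with corn oil and 1531 and 200 CPM with 4OHT (log2 fold change 5.93, SE 1.34, adjusted p 0.998 by edgeR). The groups did not overlap (14% of all genes in this direction), but 4OHT replicate 1 had 7.67 times the level of 4OHT replicate 2. The pooled ratio was 39.7, with a counting interval of 15.3 to 147. That interval takes each UMI as independent and leaves out the spread between cells and mice. Of the 211 Nts UMIs of 4OHT replicate 1, 86 came from 1 cell. Within the lymphatic-like group Nts had 0 UMIs in the 2 and 7 cells of the corn oil-labelled libraries. It had 173 UMIs in 6 of 20 such cells of 4OHT replicate 1 and 62 UMIs in 5 of 37 of 4OHT replicate 2. Sema3d had 0 UMIs in both corn oil-labelled libraries and 16 and 20 with 4OHT (adjusted p 0.998 by edgeR). Against an assumed floor of 3 UMIs over the corn oil group the pooled ratio was 6.86. The lower counting limit from the UMIs themselves was 5.30, which again leaves out the spread between mice. Without corn oil replicate 1 the adjusted p by edgeR was 0.0132 for Ptn, 1.63e-09 for Nts and 0.00271 for Sema3d, with 1 corn oil library left. Without corn oil replicate 2, 4OHT replicate 1 and 4OHT replicate 2, in this order, it was 0.266, 0.364 and 0.170 for Ptn by edgeR. For Nts it was 0.277, 0.0573 and 2.59e-06 by edgeR, and for Sema3d 0.503, 0.999 and 0.973, so no gene of the 3 passed in all of these fits.

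Read by list, 7 of 12 lymphatic genes passed the filter on low counts and were tested. All 7 had a log2 fold change above 0 (median 1.47), where 1368 of all 2535 genes did (median 0.06). None of the 7 passed the test. Nts (0 and 16.6 CPM with corn oil) and Mmrn1 (33.1 and 29.1 CPM) passed the filter through the 4OHT-labelled libraries. These signs are thus not independent of the filter. Of the 201 Ccl21a UMIs of 4OHT replicate 1, 146 came from 1 cell, and 4OHT replicate 2 had 1. The other lists are also counted over tested genes alone. Lymphatic-like cells were 25.0% (2 of 8) and 8.97% (7 of 78) of endothelial cells in the corn oil-labelled libraries. In the 4OHT-labelled ones they were 47.6% (20 of 42) and 26.6% (37 of 139). The shares of corn oil replicate 1 and 4OHT replicate 2 were close, and the former rests on 2 cells. The part of this share in the values of the list was not tested. The arterial list had 0 of 6 above 0 (median -0.63). The tip cell list had 2 of 10 above 0 (median -0.72), and its summed level was 6263 CPM in corn oil replicate 1, where 4 of 8 cells were in group 2, against 2727 CPM in corn oil replicate 2 and 2315 and 2237 CPM with 4OHT. The interferon list had 2 of 10 above 0 (median -0.81), while its sums, 1789 and 11727 CPM with corn oil and 4121 and 8675 CPM with 4OHT, overlapped and were higher in the libraries numbered 2. The immediate early list had 11 of 13 above 0 (median 0.54). Its sum was 17543 CPM in lymphatic-like cells and 10609 CPM in the other endothelial cells pooled. Among those others, groups 2 and 4 were higher still, at 20214 and 20109 CPM. Groups 1, 3, 5 and 6 lay between 5045 and 8880 CPM. Fos, its gene with an unadjusted p under 0.05, had a log2 fold change of 0.92 in all endothelial cells and -0.19 without the lymphatic-like group. The fit without that group kept 6 and 71 cells with corn oil and 22 and 102 with 4OHT. Lists of VEGF and angiopoietin genes (4 of 8, median 0.15) and of general endothelial genes (12 of 21, median 0.12) lay near the median of all genes.

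Among single list genes with an unadjusted p under 0.05, Plvap stood at 365 and 366 CPM with corn oil and at 682 and 766 CPM with 4OHT. Its groups did not overlap, and its log2 fold change was 1.06 (SE 0.42, adjusted p 0.998 by edgeR). Without the lymphatic-like group it was 0.56 (unadjusted p = 0.489 by edgeR). Of 9 hypoxia genes tested, 1 had a log2 fold change above 0 (median -0.39). The hypoxia gene Egln3 stood at 331 and 295 CPM, then 58.0 and 119 CPM, and Id2, an inhibitor of helix-loop-helix factors, at 99.4 and 99.8 CPM, then 36.3 and 29.8 CPM. Non-overlap in the lower direction was found for 14.3% of genes. The epithelial keratin gene Krt14 stood at 232 and 216 CPM with corn oil and 72.6 and 83.4 CPM with 4OHT. Krt17 stood at 99.4 and 349 CPM, then 87.1 and 83.4 CPM, and Epcam, a gene of the rule, at 66.3 and 99.8 CPM, then 21.8 and 35.8 CPM. Of the other epithelial list genes tested, Krt8, Krt18 and Mylk had log2 fold changes of 0.15, 0.49 and 0.49, and Acta2 one of -0.15. The 8 basal epithelial genes summed to 365 and 1048 CPM, then 334 and 590 CPM, so these sums overlapped, and the part of epithelial RNA in the other values was not tested. In endothelial cells Tfap2c had 5 UMIs with corn oil and 3 with 4OHT, too few to compare.

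**Figure D5:**
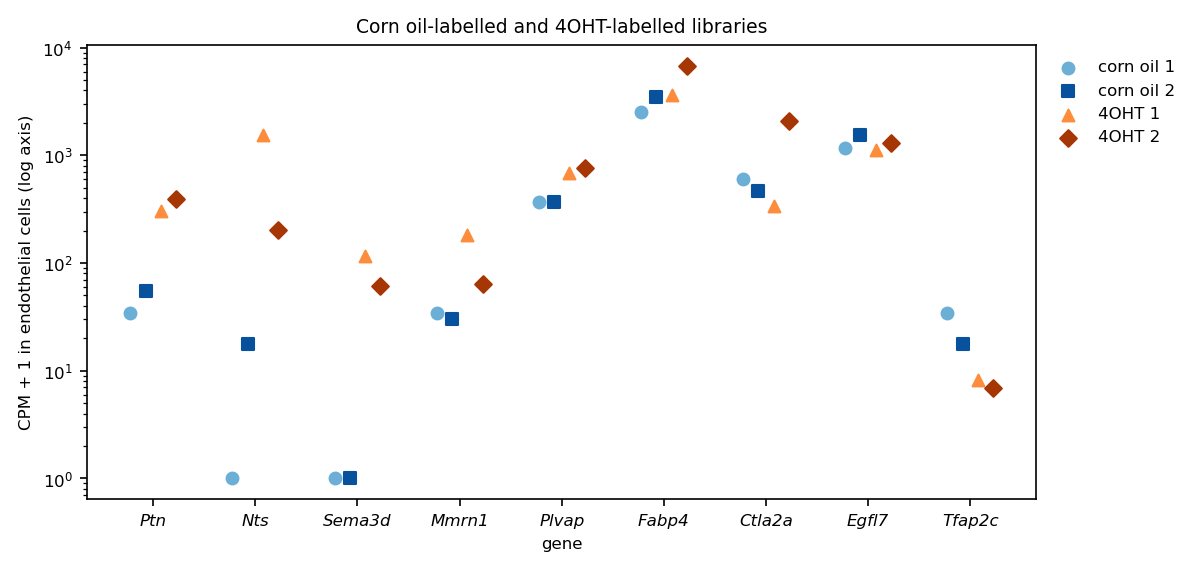
Level in the endothelial cells of each library, as CPM plus 1 on a log axis, of genes with low p-values (Ptn, Nts, Sema3d, Mmrn1, Plvap) and of reference genes. Ptn, Nts and Sema3d are higher in both 4OHT-labelled libraries, while Egfl7 lies between 1110 and 1538 CPM in all of them.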

How the data were processed

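Raw UMI counts per gene and barcode were deposited by the authors for 31053 genes, made with Cell Ranger 3.0.1 on mm10 per the submitters' processing notes; per the labels' design text these are 3′ libraries. Cell calling settings are not given in the sources used here. Total counts per library ranged from 17351950 to 22017878. Strand and intron use are not given, so overlapping or near-identical genes are uncertain.

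The members and the 32 gene lists were chosen with earlier results of these data known. CPM and ratios (5 CPM added) were computed from pooled counts. Named genes were the 20 with the highest ratio among genes of at least 100 CPM that were at least 4-fold higher in each library with at least 20 members, plus list members; for 4OHT, where none passed, the 3 with the smallest p, Tfap2c and list members. For each group of cells the 10 genes with the highest ratio could be named. Promoter motifs and the regions shown were chosen after the data were seen.

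Endothelial cells were clustered with scanpy 1.11.5 (2000 variable genes, 20 principal components, 15 neighbours, Leiden resolution 1, leidenalg 0.10.2). Scrublet's automatic threshold marked at most 0.15% of a library's barcodes and was taken as failed, so the highest scores were marked instead at 0.8% per 1000 cells; no doublet was removed. Counts summed per library were tested with edgeR 4.0.16 in R 4.3.3 (TMM, filterByExpr, quasi-likelihood, Benjamini-Hochberg, 0.05), tested on simulated data first. DESeq2 1.42.0, other filters, marker sums of 3 and 6, doublets, thinning, other cluster settings and left-out libraries were alternatives; those on doublets and thinning were chosen after seeing the data. The labels differ on how long the injections lasted, and no result rests on it. Promoter windows are RefSeq's on GRCm38.p6, and gene positions are GENCODE M21's on GRCm38.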

Additional observations from a re-analysis of the deposited data

Results flagged for a closer look

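Below the depth limit of the rule, 25 of 391 barcodes with under 1000 UMIs met both marker conditions, 6.39% of them. These barcodes entered no comparison, and they were singled out because the signal lies in data that the comparisons do not use.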

How the results depend on the processing

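The difference in endothelial share kept its sign under the other marker sums, the exclusion of any epithelial UMI, the cell filter and the removal of high doublet scores (0.299 to 0.722 points). Leaving out 1 library gave values from -0.136 to 1.53 points, and it turned to -0.111 without corn oil replicate 1 and to -0.136 without 4OHT replicate 2. At 50 CPM in place of 100 CPM, 312 genes were at least 4-fold higher in place of 199; leaving out 1 library gave 190 to 208.

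Shares of the groups were also taken with the cells of 1 library left out, without clustering again. They show the weight of each library and do not check whether the groups were stable. Left-out libraries gave shares of 20.4% to 31.2% for group 0, 15.3% to 22.7% for group 1, 12.0% to 14.3% for group 2, 7.81% to 13.8% for group 3, 9.38% to 13.2% for group 4, 7.41% to 12.9% for group 5 and 6.35% to 12.0% for group 6. At Leiden resolution 0.5 all 32 cells of group 3 and 17 of the 30 of group 4 lay in 1 group of 18.4%, and the group that held group 6 grew from 27 to 39 cells (14.6%), and with 10 neighbours group 4 was 5.99%.

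Genes past the threshold between treatments numbered 0 to 26 when 1 library was left out, and 8 with no filter on low counts (4 higher, 4 lower). The other alternatives gave 0. Ptn, Nts and Sema3d were not among the genes tested without the lymphatic-like group. Of the single-gene changes, Ctla2a turned to -0.57 without 4OHT replicate 2 (2.14 without 4OHT replicate 1), Krt14 to 0.049 with no epithelial UMI allowed and Fos to -0.19 without the lymphatic-like group. The causes were not tested.

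With the replicate number as a block, 0 genes passed (98 at an unadjusted p under 0.05). The libraries share only a number: the difference between numbers 1 and 2 correlated at 0.30 over 2535 genes between the treatments, in 2 pairs. Among the limits of the treatment test are 2 libraries per group and the 30177 endothelial UMIs of 8 cells in corn oil replicate 1.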

Other observations

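A few endothelial cells carried very high counts of single genes. Glycam1, which encodes a ligand of L-selectin known from the high endothelial venules of lymph nodes, had 1008 UMIs in 6 cells, with 816 and 142 of them in 2 cells. The 6 cells lay in corn oil replicate 2 (3 cells, 840 UMIs) and 4OHT replicate 1 (3 cells, 168 UMIs), the same 2 libraries that held leukocyte-marker cells (25 and 28). Ccl21a, a chemokine gene of lymphatic and high endothelial cells, had 87 UMIs in 1 cell of corn oil replicate 2, 201 UMIs in 6 cells of 4OHT replicate 1 and 1 UMI in 4OHT replicate 2. Hamp, the gene of the iron hormone hepcidin, had 166 UMIs in 3 cells, all of corn oil replicate 2.

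Rsad2, an interferon-stimulated gene, was seen in 19 of 78 endothelial cells of corn oil replicate 2 and 28 of 139 of 4OHT replicate 2, against 1 of 8 and 3 of 42 in the libraries numbered 1. Its UMIs numbered 423 and 294 in the former and 2 and 4 in the latter. The level thus differed by library number within both treatments, at 66.3 and 1758 CPM with corn oil and 29.0 and 876 CPM with 4OHT.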
